A study of Mus musculus with 2 samples.

Results

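The genes described here are 37 mouse genes of the G1 to S transition and of DNA replication, out of 20618 named genes with a probe on the array. They were chosen by function, and a probe belonged to one of them when its RefSeq accession maps to that gene's symbol. All 37 genes had at least 1 probe, and 47 probes in all. The cells were leukaemic cells of B-cell acute lymphoblastic leukaemia (B-ALL) from C57BL mice aged 8 weeks, sorted from bone marrow by the excitation ratio of SoNar, a fluorescent sensor that follows the NADH to NAD+ ratio. The SoNar-high and SoNar-low cells gave 1 array each, with total RNA labelled with Cy3 on an Agilent mouse array of 1 colour. Their titles in the labels are N-myc-high and N-myc-low, which the labels do not explain, so the naming of both groups rests on the source names. How the leukaemia was induced and how many mice were used is not given in the sources used here. As each group had a single array, no difference has a replicate check or a test, and every difference below describes these 2 arrays. The arrays were scanned in different sessions, so scan and group cannot be told apart.

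A cell enters S phase when cyclin D with CDK4 or CDK6, and then cyclin E with CDK2, inactivate the retinoblastoma protein and free the E2F factors, which switch on the replication genes. In G1 the origin recognition complex, Cdc6 and Cdt1 load the ring of Mcm2 to Mcm7 onto origins, a step called licensing. In S phase Cdc45 and the GINS complex turn this ring into the active helicase, and polymerases, the PCNA clamp and its loader copy the DNA from nucleotides that ribonucleotide reductase supplies.

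Since E2F factors are known to act through short promoter sites, the promoters were searched for 4 words of the E2F consensus, TTTCGCGC, TTTCCCGC, TTTGGCGC and TTTGCCGC, on both strands. Each window reached from 250 bases before to 50 bases after a gene's RefSeq start (GRCm38.p6). The table holds 34 such windows for 28 of the 37 genes. A word stood in 13 of the 34 windows (38.2%), in 1 window each of 13 genes, against 744 of all 32851 windows (2.26%) and 16 of 62 windows (25.8%) of the other replication genes listed further on. The stretches below hold the words that lie before the start of Cdc6, the gene of the 37 with the highest difference among those measured on both arrays, and of licensing genes for comparison. Capitals mark the matches, and the words of Mcm5 overlap, as do the first pair of Mcm6.
Cdc6: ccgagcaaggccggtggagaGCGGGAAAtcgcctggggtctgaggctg
Orc1: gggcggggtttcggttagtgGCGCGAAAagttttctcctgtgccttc
Mcm5: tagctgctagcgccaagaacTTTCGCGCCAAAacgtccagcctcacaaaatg
Mcm6: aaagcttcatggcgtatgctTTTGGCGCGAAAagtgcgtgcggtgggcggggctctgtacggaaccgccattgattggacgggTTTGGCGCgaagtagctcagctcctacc
Mcm7: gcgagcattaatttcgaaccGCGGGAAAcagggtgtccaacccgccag

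The Cdc6 stretch lies at chr11:98907993-98908040 on the plus strand and that of Orc1 at chr4:108579407-108579453 on the plus strand. The Mcm5 stretch lies at chr8:75109336-75109387 on the plus strand, that of Mcm6 at chr1:128359725-128359835 on the minus strand, and that of Mcm7 at chr5:138172021-138172068 on the minus strand. The first base of the match lies 138 bases before the start in Cdc6, 27 in Orc1, 153 in Mcm5, 110 in Mcm6 and 165 in Mcm7. Matching words also stood in the windows of Cdk2, E2f2, E2f3, Cdt1, Mcm3, Pola1, Rfc3 and Uhrf1. The log2 differences of the 13 genes with a word ran from -0.51 (Mcm5) to 1.41 (Cdc6). Cdc6, Pola1 (0.18) and Cdk2 (0.05) lay above 0 and the others below. Of all 35 members measured on both arrays, 24 lay below 0. A match is a description of the letters and not a measured binding site.

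Of 43020 non-control spots on each array, 72.9% were well above background in SoNar-high and 44.8% in SoNar-low, and 0 were saturated. Signals are the processed, background-subtracted intensities of the scanner software. A level is log2 of that signal minus the array's 75th percentile (525 in SoNar-high and 475 in SoNar-low), and a log2 difference is SoNar-high minus SoNar-low. The software's own error of a signal gave errors of 0.20 to 0.25 for the log2 difference of a member probe measured on both arrays, and the SD of that difference between repeat spots was 0.15 at the median of 196 repeated probes. Both cover the spot measurement and leave out the spread between mice, sorts and labellings.

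Most of the 37 genes lay close to the rest of the array. The 35 genes measured on both arrays had a median log2 difference of -0.23, against -0.17 for all 10517 genes measured, and their middle 50% ran from -0.45 to 0.07, against -0.47 to 0.20. Cdc6 alone was at least 2-fold higher in SoNar-high (1 of 35, 2.86%, against a background of 4.87% of all genes), and 0 of 35 were at least 2-fold lower (background 1.68%). Both shares lie near or under the background. Of the 35 genes, 19 lay under the median of all genes and 16 above it. With each array scaled to its median in place of the 75th percentile, all log2 differences shift by -0.61. Then 0 genes were at least 2-fold higher (background 1.32%) and 12 of 35, or 34.3%, at least 2-fold lower (background 31.4%). For this reason a gene's place relative to the median of all genes is given where it matters, and it does not move with such a shift.

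**Figure D1:**
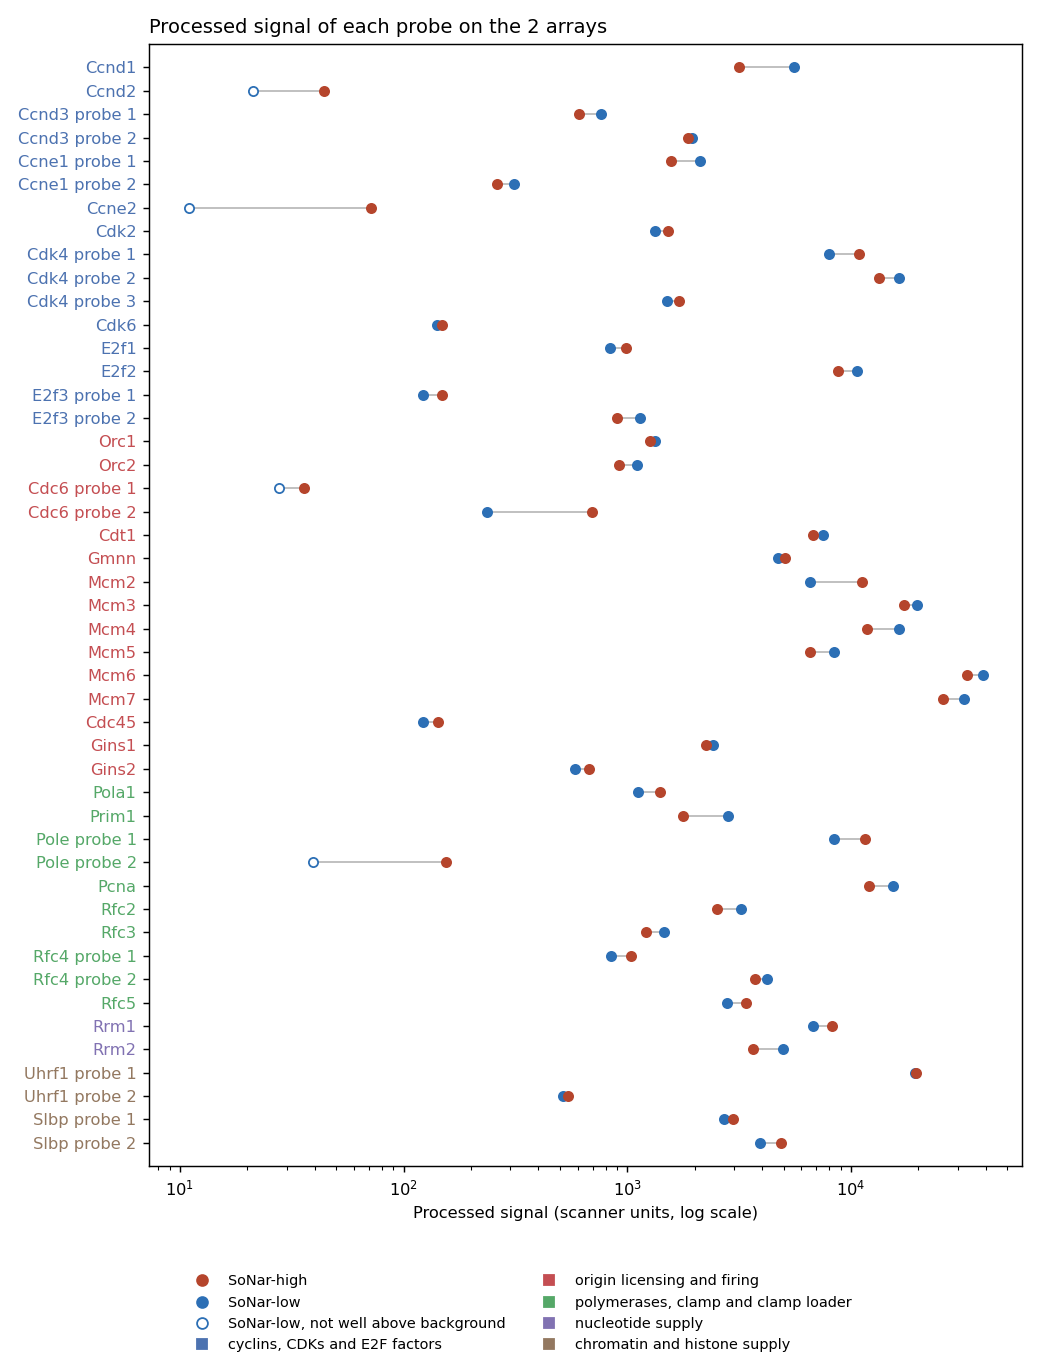
Processed signal (scanner units, log scale) of each of the 47 probes of the 37 genes on the SoNar-high array (red) and the SoNar-low array (blue), 1 array per group, with gene names coloured by step and open circles for spots not well above background. Most pairs of points lie close together, and the 4 open circles belong to Ccnd2, Ccne2, 1 probe of Cdc6 and 1 probe of Pole.

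The D-type cyclins, which start the G1 programme with CDK4 and CDK6, did not share a pattern. Ccnd1 (cyclin D1) had a signal of 3159 in SoNar-high and 5538 in SoNar-low, a log2 difference of -0.95 ± 0.20 (scanner error). It was the lowest of the 35 measured genes and just short of 2-fold. Ccnd3, the D-type cyclin that early B cells are known to need for expansion, was read by 2 probes, at 611 and 761 for the first and 1876 and 1953 for the second. Their log2 differences of -0.46 and -0.20 average to -0.33, which is 0.16 under the median of all genes. Ccnd2, the remaining D-type cyclin, had a signal of 44.2 in SoNar-high and was not well above background in SoNar-low. Its level of -3.57 in SoNar-high lies under the lowest detected level of the SoNar-low array, -3.36, so no fold can be given.

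The E-type cyclins, which activate CDK2 late in G1, differed in whether they could be measured. Both probes of Ccne1 were lower in SoNar-high, with 1566 against 2121 for the first and 263 against 312 for the second, and their log2 differences of -0.58 and -0.39 average to -0.49 ± 0.15. The single probe of Ccne2 read 71.9 in SoNar-high and was not well above background in SoNar-low. It was at least 1.40-fold higher in SoNar-high, a bound set by the lowest detected level of the SoNar-low array, and median scaling leaves no bound above 1.

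The kinases lay near 0. Cdk2 read 1517 and 1324 in SoNar-high and SoNar-low, a log2 difference of 0.05, and Cdk6 read 148 and 142, a difference of -0.08. The Cdk6 difference was -0.42 with quantile normalization, -0.32 with cyclic loess and -0.46 in the authors' deposited table. Relative to the median of all genes, Cdk6 was above in 6 of 11 settings and below in 5, so its place is not settled. For Cdk4 the 3 probes disagreed in sign, with log2 differences of 0.30, -0.44 and 0.03 and a mean of -0.04. No single Cdk4 probe therefore speaks for the gene.

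Among the activating E2F factors, E2f1 read 989 in SoNar-high and 838 in SoNar-low, a log2 difference of 0.09, and E2f2 read 8735 and 10672, a difference of -0.43. E2f3 had probes on either side of 0, at 0.13 and -0.49, with a mean of -0.18. E2f2 stayed under the median of all genes in every setting tried and E2f1 above it in 10 of 11. For a gene with a single probe, the settings on dim probes, probe choice and outlier spots leave its difference unchanged. They move only the median of all genes. As a step, the 9 measured cyclin, CDK and E2F genes had a median log2 difference of -0.18, and 0 of them reached 2-fold in either direction.

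Origin recognition and loading genes followed the rest of the array with 1 exception. The exception was Cdc6, the ATPase that recruits the MCM ring to the origin together with Cdt1. One of its 2 probes read 697 in SoNar-high and 237 in SoNar-low, a log2 difference of 1.41 ± 0.22, or 2.66-fold. Its other probe read 35.9 in SoNar-high and was not well above background in SoNar-low. At a level of -3.87 that probe gives no bound, and averaged in with no filter on dim probes it takes Cdc6 to 0.82, under 2-fold. With median scaling the log2 difference of Cdc6 was 0.80. The value of Cdc6 thus rests on 1 spot per array.

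The partners of Cdc6 in licensing did not share its difference. Orc1, the ATPase subunit of the origin recognition complex, read 1262 and 1337 in SoNar-high and SoNar-low (log2 difference -0.23), and Orc2, another subunit, read 921 and 1107 (-0.41). Cdt1 read 6799 and 7501, a log2 difference of -0.29. Gmnn encodes geminin, the inhibitor that holds Cdt1 back after S phase starts, and read 5047 and 4726, a log2 difference of -0.05.

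**Figure D2:**
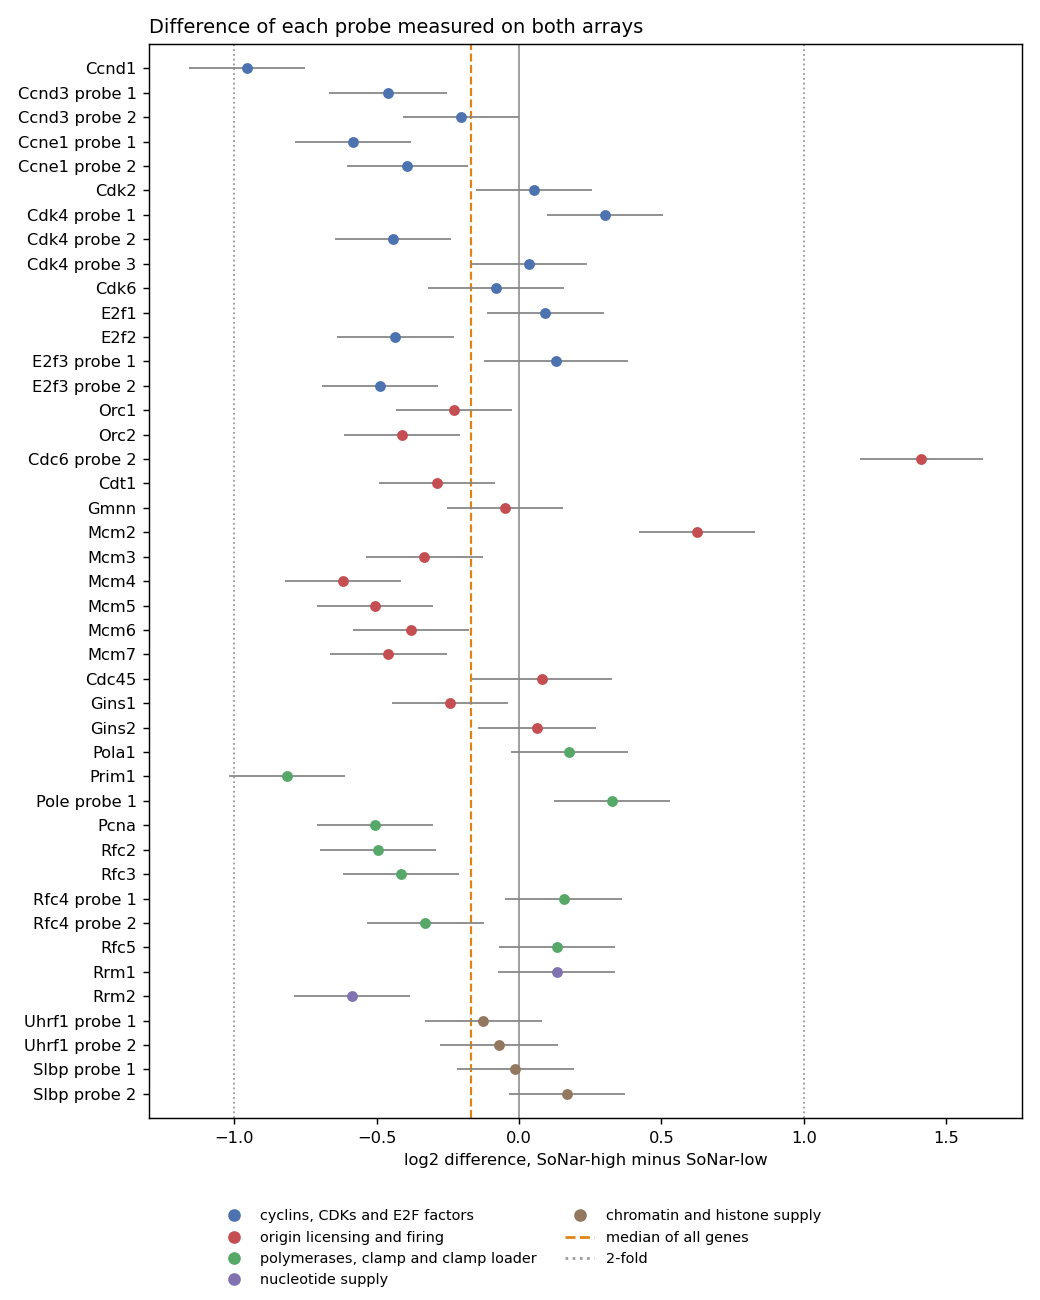
Difference in log2 level between the SoNar-high and SoNar-low arrays (the first minus the second) for each of the 43 member probes measured on both arrays (1 array per group), with bars for the scanner software's error and lines at 0, at 2-fold (dotted) and at the median of all genes, -0.17 (dashed). The Cdc6 probe at 1.41 lies alone beyond 2-fold, Mcm2 at 0.62 is the next highest, and Ccnd1 at -0.95 and Prim1 at -0.81 are the lowest.

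Within the MCM ring, whose 6 subunits act as 1 complex, Mcm2 stood on the other side from its partners. Mcm2 read 11162 in SoNar-high and 6550 in SoNar-low, a log2 difference of 0.62 ± 0.20. The other 5 subunits were lower in SoNar-high. Mcm4 read 11803 against 16393, a log2 difference of -0.62, and Mcm5 read 6557 against 8425, a difference of -0.51. Mcm7 (25858 against 32130) had a difference of -0.46, Mcm6 (33006 against 38825) one of -0.38 and Mcm3 (17283 against 19675) one of -0.33. Relative to the median of all genes, Mcm2 was above in each of 11 settings and Mcm4, Mcm5, Mcm6 and Mcm7 below in each, while Mcm3 crossed to 0.03 above it with cyclic loess. Each subunit was read by 1 probe, so a difference between subunits cannot be told apart from one between probes. For the same reason the settings on dim probes, probe choice and outlier spots left each difference unchanged. Only the median of all genes moved there, so the 11 settings are not 11 checks. No subunit reached 2-fold in the 75th percentile scaling. With median scaling Mcm4 (-1.23), Mcm5 (-1.12) and Mcm7 (-1.07) were at least 2-fold lower, as were 31.4% of all genes. Mcm2 then lay at 0.01, so its distance from 0 depends on the scaling.

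The genes that turn the loaded ring into a helicase were nearer to 0. Cdc45 read 142 in SoNar-high and 122 in SoNar-low, a log2 difference of 0.08 that turned to -0.29 with quantile normalization, -0.20 with cyclic loess and -0.31 in the authors' deposited table, so its direction is not settled. The GINS subunits Gins1 (2251 and 2407) and Gins2 (674 and 583) had differences of -0.24 and 0.06. Over the 14 genes of licensing and firing the median log2 difference was -0.26, and 9 of the 14 lay under the median of all genes.

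The replicative polymerases and their primase showed opposite signs within 1 complex. Pola1, the catalytic subunit of polymerase alpha, read 1402 in SoNar-high and 1122 in SoNar-low, a log2 difference of 0.18 ± 0.20. Prim1, the primase subunit that works in the same complex, read 1783 and 2834, a difference of -0.81 ± 0.20. With median scaling both lay below 0, Pola1 at -0.44 and Prim1 at -1.43. Pola1 lay above and Prim1 below the median of all genes in each of the 11 settings. A single probe read each gene, so a difference between the genes cannot be told apart from one between probes.

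Pole, the catalytic subunit of the leading-strand polymerase epsilon, was read by 2 probes that gave unlike values. The bright one read 11593 in SoNar-high and 8357 in SoNar-low, a log2 difference of 0.33. The dim one read 155 in SoNar-high and was not well above background in SoNar-low, which makes it at least 3.02-fold higher in SoNar-high in the 75th percentile scaling and at least 1.97-fold higher with median scaling. The gene's value uses the bright probe alone, whose log2 difference turned to -0.29 with median scaling, and the dim probe was measured only on the array where it was high.

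Pcna, the sliding clamp that holds polymerases on DNA, read 11983 in SoNar-high and 15373 in SoNar-low, a log2 difference of -0.50. The clamp loader, replication factor C, opens and closes that ring, and its small subunits were split. Rfc2 (2528 and 3221) and Rfc3 (1213 and 1462) had log2 differences of -0.49 and -0.41 and stayed under the median of all genes in every setting tried. Rfc5 (3387 and 2793) had one of 0.13, and the probes of Rfc4 lay at 0.16 and -0.33. The 8 genes of polymerases, clamp and clamp loader had a median of -0.25, with 4 under and 4 above the median of all genes.

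The subunits of ribonucleotide reductase, which makes deoxyribonucleotides, also lay on different sides of 0. Rrm1, the large catalytic subunit, read 8190 in SoNar-high and 6759 in SoNar-low, a log2 difference of 0.13 ± 0.20. Rrm2, the small subunit whose level is known to follow S phase, read 3664 and 4976, a difference of -0.59 ± 0.20. With median scaling both lay below 0, Rrm1 at -0.48 and Rrm2 at -1.20. Rrm2 lay under the median of all genes in each of the 11 settings, and Rrm1 above it in 10. A single probe read each subunit.

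Uhrf1 and Slbp serve the copying of chromatin. Uhrf1, which brings the maintenance DNA methyltransferase to newly copied DNA, had log2 differences of -0.12 and -0.07 at its 2 probes, the brighter of which read 19599 in SoNar-high and 19328 in SoNar-low. Slbp, which binds the stem-loop of replication-dependent histone mRNAs, had differences of -0.01 and 0.17. Both genes showed close agreement between probes. Over the 7 members with several probes measured on both arrays, the probes of a gene spanned 0.26 at the median, against 0.47 for 2394 such genes of the array.

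**Figure D3:**
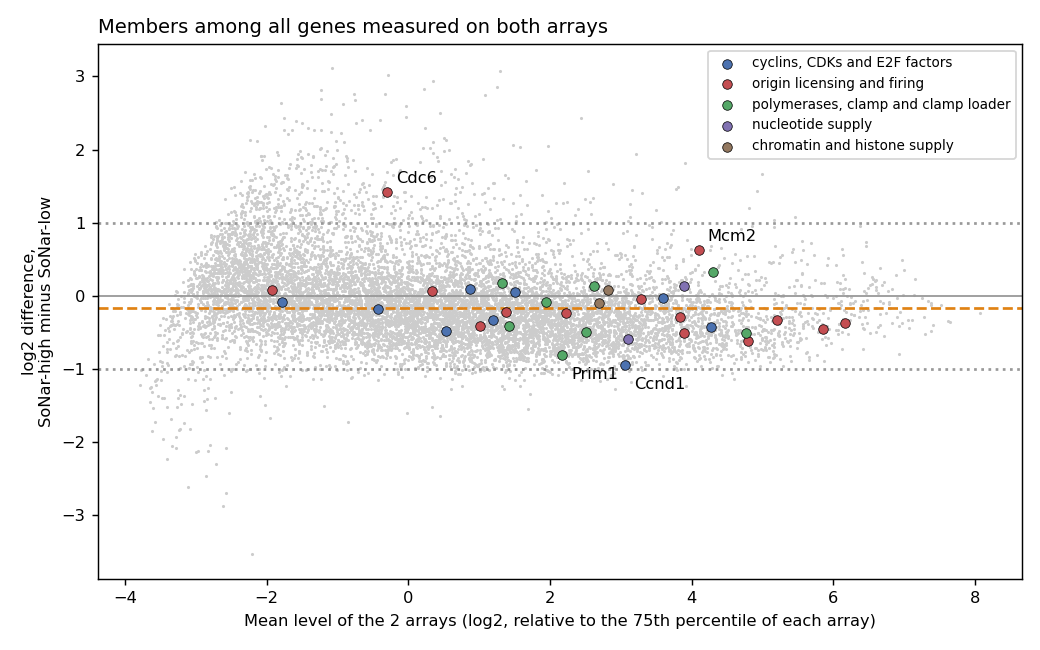
Log2 difference, SoNar-high minus SoNar-low, against the mean level of both arrays for the 10517 genes measured on both (grey) and the 35 measured member genes (coloured by step), with lines at 0, at 2-fold (dotted) and at the median of all genes, -0.17 (dashed). Cdc6 lies above the 2-fold line and the other 34 between the 2-fold lines.

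Measured against the scanner error, the log2 differences of 20 of the 35 genes lay within 2 errors of 0 (57.1%, against 53.3% of all genes). A further 13 lay beyond that below 0 (37.1%, against 31.4%) and 2 above it (5.71%, against 15.3%). Against the median of all genes, 27 of 35 (77.1%) lay within 2 errors, as did 59.0% of all genes. The 3 that lay further above were Cdc6, Mcm2 and Pole (8.57%, against 22.3% of all genes), and the 5 further below were Ccnd1, Ccne1, Mcm4, Prim1 and Rrm2 (14.3%, against 18.7%). These errors describe spots and not samples, so they do not show that the groups differ.

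A further 58 genes of the same pathway were set beside the 37, from a list chosen by function. Of these, 55 were measured on both arrays, with a median log2 difference of -0.05. E2f4, a repressor E2F of resting cells, was the 1 gene at least 2-fold higher (1.82% of 55, against the background of 4.87%), and 0 were at least 2-fold lower. E2f4 read 2271 in SoNar-high and 854 in SoNar-low, a log2 difference of 1.27 ± 0.20. The next highest was Rpa2, a subunit of the single-strand binding protein RPA, with 3194 and 1532 and a difference of 0.91, while its partner Rpa1 lay at -0.87. Among the lowest was E2f8, an atypical repressor E2F, at -0.89. Rrm2b, the alternative small subunit of ribonucleotide reductase, was above background in SoNar-high only, and Prim2 and Skp2 had no named probe. Mki67, the common marker of cycling cells, read 12580 and 11462, a log2 difference of 0.01.

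**Figure D4:**
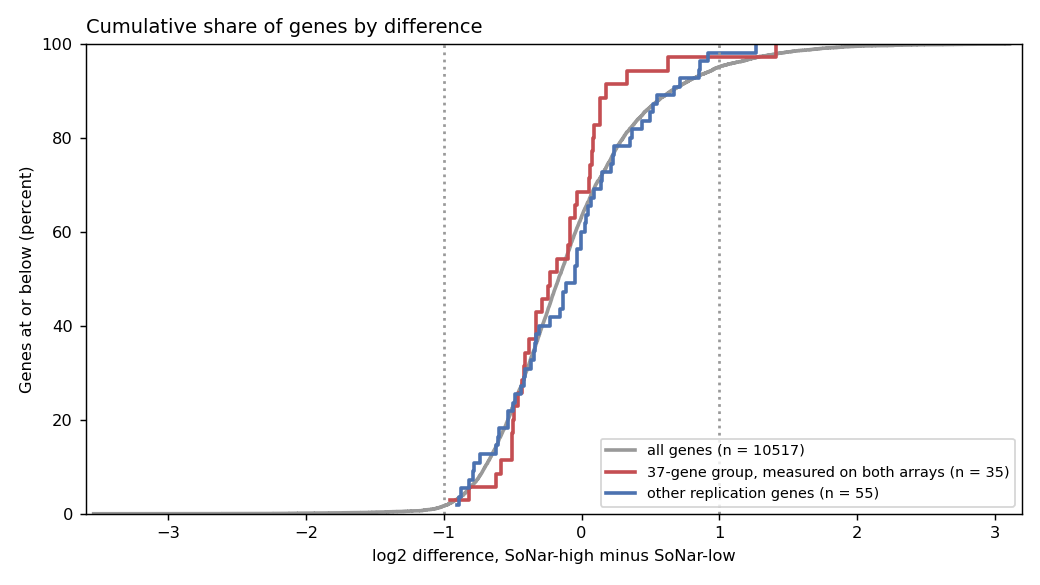
Cumulative share of genes (percent) by log2 difference, SoNar-high minus SoNar-low, for all 10517 genes measured on both arrays, the 35 measured member genes and the 55 other replication genes. The 3 curves run close together, with medians of -0.17, -0.23 and -0.05.

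The labelled cell type was checked against its markers. Of 13 B-lineage genes 10 were measured on both arrays, with Cd79b, a signalling subunit of the B cell receptor, at 14376 in SoNar-high and 12625 in SoNar-low, while Rag1, Rag2 and Igll1 were well above background on neither array. Markers of other marrow cells were also present. The 10 neutrophil genes were all measured, 9 of them had differences over the median of all genes, and their summed signal in units of each array's 75th percentile was 47.4 in SoNar-high and 37.9 in SoNar-low. Of 9 T and NK cell genes 5 were measured, all 5 above that median, with a sum of 3.30 against 1.45, and Cd3d and Klrb1c were well above background on neither. The 9 erythroid genes, 5 of them measured, had 4 above that median and summed to 33.5 and 52.8, of which Hemgn, with signals of 14153 and 22791, was the 1 gene below it. The 6 stromal and endothelial genes, 4 of them measured, had 3 above that median (Kdr, Col1a1 and Pecam1) and summed to 16.7 and 27.6, with Alpl, at signals of 7773 and 12517, the 1 gene below it and Cxcl12 not well above background on either. The 6 monocyte and macrophage genes, 2 of them measured, summed to 0.785 and 0.404, with Ccr2 not well above background on either. The erythroid gene Hbb-b1 and the monocyte gene Ly6c2 had no named probe and add nothing to the sums. Each sum takes in all probes of its genes, also those not well above background. With median scaling, the shift of -0.61 in all log2 differences would put the neutrophil sum lower in SoNar-high. The 5 measured T and NK genes had SoNar-low signals from 62.3 (Gzma) to 489 (Nkg7), against a 75th percentile of 475 on that array. Letting in genes detected on only 1 array moves the median of all genes from -0.17 to 0.14. The part of weak signals in the marker differences was not tested. In sorted bulk cells, fewer cells of a type and less RNA per cell cannot be told apart, and the part of other cells in the differences above was not tested.

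**Figure D5:**
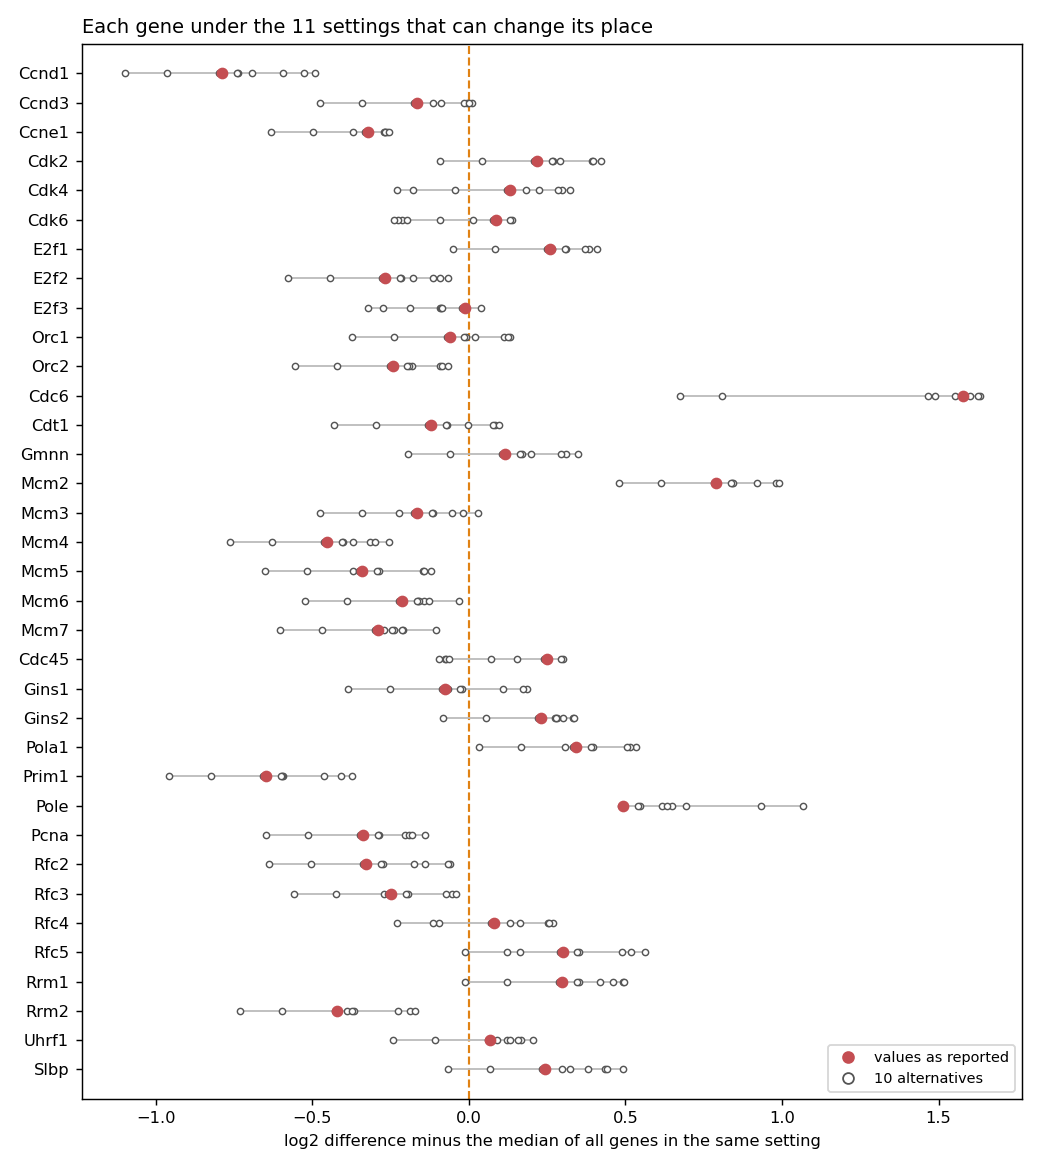
Log2 difference of each of the 35 measured genes minus the median of all genes, for the values as reported (filled) and 10 alternatives (open) that can change a gene's place. Of the 35 genes, 17 kept to 1 side of the median in all 11 settings, 4 of them above it (Cdc6, Mcm2, Pola1 and Pole) and 13 below. Cdk2, E2f1, Gins2, Rfc5, Rrm1 and Slbp lay above it in 10 settings. They fell below it only with detection on at least 1 array, where the median of all genes rose by 0.31 and 31 of 37 members lay under it. E2f3 and Mcm3 lay below it in 10 settings. The share of all genes that keep to 1 side was not counted. For genes with 1 probe, the settings on dim probes, probe choice and outlier spots move only the median of all genes.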

How the data were processed

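The members and gene lists were chosen with earlier results of these data known. The deposited scanner files hold linear intensity values, background-subtracted and detrended within each array, from Agilent Feature Extraction 11.0.1.1 per the file headers (9.1 per the submitters' processing notes). A deposited table of the authors' log2 values, with a median of 5.90 in both columns, served as an alternative. How that table was made is not given in the sources used here.

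Control spots and 685 spots marked as outliers on either array were left out, none of them from the 37 genes. Spots of a probe were averaged. A probe counted as measured on an array if over 50% of its spots there were well above background. Gene values were means over probes measured on both arrays, and a log2 difference of at least 1 in size counted as 2-fold. A gene detected on 1 array has a bound, its level there minus the probe's own level on the other array or, if higher, the lowest level measured on that array. Probes were named by RefSeq accession (GRCm38.p6 tables); the array annotation is of the mm9 build per the file headers. All 37 genes and, of the 58 other replication genes, those with a 2-fold difference and the 2 highest and 2 lowest were to be named, beside partner genes (Rpa1), genes without a value and markers; some of these are not reported here.

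The code that averages probes and counts 2-fold differences was tested on simulated data, which bears on the code and not on the spread between samples. Alternatives, 13 in all, covered scaling, normalization, normexp background correction with an offset of 50 on median spot signals (the files used have no mean signal), dim-probe filters, probe choice, outlier spots and the authors' table, with 1 (centring on the median of all genes) added after seeing the data. Python 3.11.15, numpy 2.4.6, pandas 2.3.3, R 4.3.3 and limma 3.58.1 were used.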

Additional observations from a re-analysis of the deposited data

How the results depend on the processing

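No paired analysis was possible because SoNar-high and SoNar-low had a single array each, and leaving 1 out was not possible either. Cdc6 was at least 2-fold higher in the main setting and in 10 of 13 alternatives. All 10 used the same single probe, so the tally is not a set of separate checks. The stricter dim-probe filters, the choice of the brightest probe and the keeping of outlier spots left its value unchanged by construction. With median scaling the members had 0 higher and 12 lower genes and a median of -0.84, and the other replication genes 0 higher, 17 lower (30.9%, against 31.4% of all genes) and a median of -0.66. With only the spots well above background on both arrays used for the 75th percentile, the median of the members was -0.015. The other replication genes then had 4 higher genes (7.27%, against 7.66% of all genes) and a median of 0.17. After centring, chosen after seeing the data, these values were -0.061, 4 (7.27%, against 7.06% of all genes) and 0.12. These settings shift all genes alike by construction. The other replication genes had 2 higher genes with quantile normalization (and 1 lower), cyclic loess, normexp, no filter and detection on at least 1 array, against 1 in the main setting. With no filter and with detection on at least 1 array, 2 members, Ccne2 and Pole in place of Cdc6, were higher (of 37, against 2775 of 20618 genes with no filter and 3203 of 15984 with the other), since dim probes enter by construction, among them the Ccne2 and Pole probes measured only on the SoNar-high array, and in the latter the median of the members lay 0.32 under that of all genes (-0.32), against -0.061 in the main setting. For the remaining changes the cause was not tested. The lower signal over background of the SoNar-low array limits 4 member probes to bounds or to no value.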
